A study of Mus musculus with 5 samples.

Results

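Tuft cell marker genes were followed in the epithelium of intestinal tumours from Apc1638N mice and in normal intestinal epithelium. The 9 genes were Dclk1, Trpm5, Avil, Alox5, Alox5ap, Ltc4s, Rgs13, Gfi1b and Il25, and all Affymetrix probe sets that the platform annotation pairs with 1 of these symbols were taken. This gave 13 probe sets for 7 genes, out of 22626 probe sets for 12393 named genes. Dclk1 had 6 probe sets, Trpm5 had 2, and Avil, Alox5ap, Ltc4s, Gfi1b and Il25 had 1 each. No probe set was paired with Alox5 or Rgs13, so the RNA of these genes was not analysed here. The tumour group held 3 arrays (tumours 16, 18 and 2) of Apc1638N mice, which carry a targeted mutation of the Wnt pathway scaffold gene Apc on the C57Bl6/J strain. The wild-type group held 2 arrays (wild types 36 and 62) of C57Bl6/J mice without that allele. All mice were males of 8 months kept under specific-pathogen-free conditions with free access to food, and the cells were collected by laser capture microdissection, which lifts chosen cells from a tissue section. The labels give no animal for each array, so p-values cover the scatter among these 5 arrays, which may be technical, and precision is limited by that number.

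Tuft cells are rare chemosensory cells of the gut epithelium that carry a tuft of long, stiff microvilli. They detect luminal metabolites through a taste-type cascade that ends in the cation channel TRPM5, and they release interleukin-25 and cysteinyl leukotrienes, which act on type 2 innate lymphoid cells. Type 2 cytokines then increase the number of tuft cells, and POU2F3 is the transcription factor that tuft cells need to form.

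Avil was higher in tumours and Ltc4s was lower, while the remaining 11 probe sets did not pass the test. Of all 13 changes, 10 were below 0 and 3 above. The number above 0 was 5 without tumour 16 and 1 without tumour 18. The 13 include 6 probe sets of Dclk1 and 2 of Trpm5, so they are not 13 independent changes. In this series an adjusted p under 0.05 in limma, over all probe sets, was passed by 18.3% of probe sets, 9.58% higher and 8.72% lower in tumours. The 2 of 13 marker probe sets, 1 in each direction, stand near that background. The background depends on the filter, since it was 31% with dim probe sets left out, where 2 of 6 marker probe sets passed, and 32.8% with tied probe sets left out, where 2 of 11 passed. The groups were fully separate in 7 of the 13, 1 higher and 6 lower in tumours, where 47.9% of all probe sets did not overlap, 25.3% higher and 22.5% lower in tumours. The median log2 change of the 13 was -0.09, beside 0.0020 over all probe sets. RNA was measured from pooled cells. Where a signal differed, the number of tuft cells, RNA per tuft cell and RNA of other cells cannot be told apart.

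**Figure D1:**
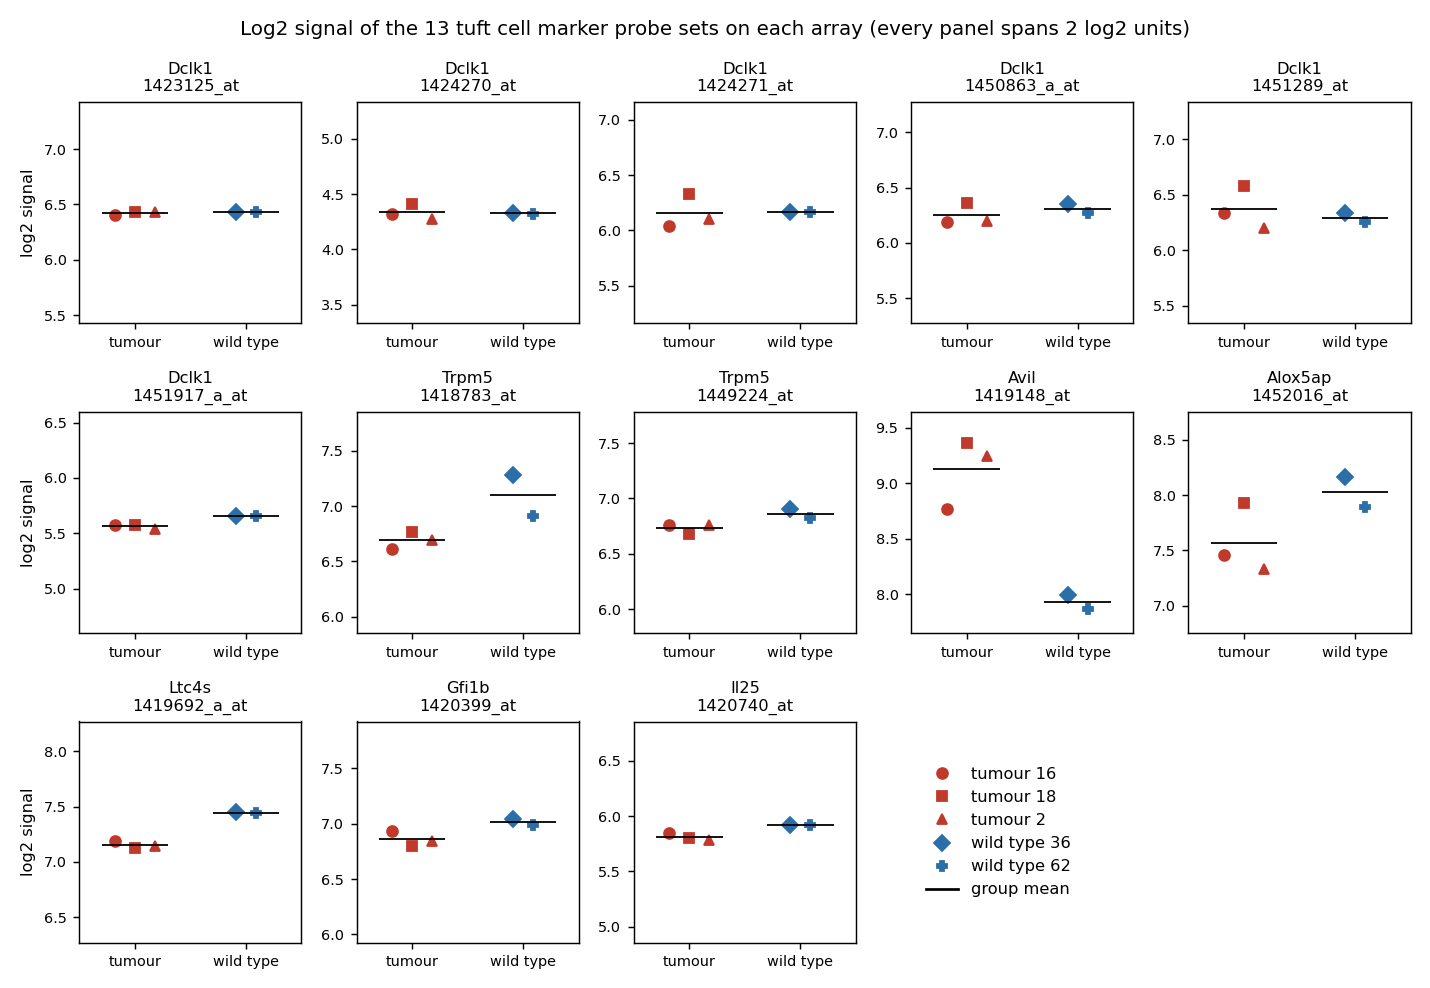
Log2 signal (vertical axis) of each of the 13 marker probe sets in tumours 16, 18 and 2 and in wild types 36 and 62, with the group means as lines and the same span of log2 units in every panel. Avil is the probe set in which the 3 tumours lie well above both wild types, and Ltc4s lies in a tight band in each group, lower in tumours.

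The promoters of Avil and Ltc4s are shown because these were the marker genes that passed the test. Promoter windows of RefSeq, build GRCm38.p6, were matched by symbol for 7 of the 9 genes, with 8 windows because Dclk1 has a second start. These were Alox5, Avil, Dclk1, Gfi1b, Ltc4s, Rgs13 and Trpm5. They differ from the 7 measured genes, since Alox5 and Rgs13 had no probe set, while Alox5ap and Il25 had no window. Each window runs from 250 bases before to 50 bases after the annotated start, and capitals mark the transcribed bases. The Avil window lies on the plus strand at chr10:127000459-127000758 and the Ltc4s window on the minus strand at chr11:50238483-50238782.
Avil: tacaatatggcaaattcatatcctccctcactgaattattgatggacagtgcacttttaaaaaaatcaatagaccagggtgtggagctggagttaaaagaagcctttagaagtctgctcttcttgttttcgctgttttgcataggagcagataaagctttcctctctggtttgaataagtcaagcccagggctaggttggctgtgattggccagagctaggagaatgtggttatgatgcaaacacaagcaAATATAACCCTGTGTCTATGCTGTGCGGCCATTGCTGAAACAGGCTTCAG
Ltc4s: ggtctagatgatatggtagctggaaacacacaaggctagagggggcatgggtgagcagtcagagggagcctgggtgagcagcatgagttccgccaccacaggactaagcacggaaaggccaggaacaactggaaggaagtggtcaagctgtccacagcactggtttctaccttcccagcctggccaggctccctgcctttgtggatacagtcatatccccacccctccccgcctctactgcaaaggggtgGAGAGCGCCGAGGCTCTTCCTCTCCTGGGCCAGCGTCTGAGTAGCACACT
The octamer ATGCAAAT, the textbook motif of POU factors, was searched on both strands and was found in 0 of the 8 windows, beside 1.74% of 32851 promoter windows. The TCF/LEF motif CTTTGAT of Wnt signalling, also searched on both strands, was found in 1 of the 8, beside 3.73% of all windows. That match was in the upstream Dclk1 window, beginning at position -153 relative to the annotated start, and no match overlapped another motif.

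Avil encodes advillin, an actin-binding protein of the gelsolin and villin family found in the microvillus bundles of tuft cells. Its log2 signal was 8.77, 9.37 and 9.24 in tumours 16, 18 and 2, against 7.99 and 7.86 in wild types 36 and 62. All 3 tumours were higher than both wild types, with tumour 16 the closest to them. Avil averaged 9.13 ± 0.31 in tumours (SD, n = 3) and 7.93 ± 0.09 in wild types (SD, n = 2). The log2 change was 1.20 (SE 0.20, limma adjusted p = 0.0295), a 2.30-fold difference. The call was lost with array weights (adjusted p = 0.0623) and without tumour 18 (0.0900), tumour 2 (0.0837), wild type 36 (0.129) or wild type 62 (0.155), while the change stayed between 1.08 and 1.38.

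The relatives of Avil moved in both directions. Of 7 measured gelsolin and villin family genes other than Avil, 3 rose, 2 fell and 2 did not pass. Among all genes, each by its brightest probe set, 20.4% passed, 10.5% higher and 9.92% lower, which is the background for every list of genes below. Capg, which encodes an actin filament capping protein, had 9.24, 8.71 and 9.61 in tumours 16, 18 and 2, against 6.70 and 7.19 in wild types 36 and 62. It rose by 2.24 (SE 0.33, limma adjusted p = 0.0222), and the groups did not overlap. Gsn, the gelsolin gene, rose by 1.50 (SE 0.16, adjusted p = 0.0123) in its brightest probe set, but its 5 other probe sets differed by -0.11 to 1.69, with 2 of them past the threshold. Vil1, the villin gene of the enterocyte brush border, fell by 1.26 (SE 0.14, adjusted p = 0.0140), with 11.17, 11.05 and 11.46 in the tumours against 12.42 and 12.55 in the wild types. Scin, which encodes the actin-severing protein scinderin, fell by 2.92 (SE 0.28, adjusted p = 0.0108). Vill, named here after its value was seen because it completes the count, rose by 0.73 (SE 0.11, adjusted p = 0.0241). Whether the Avil probe set also takes up RNA of these relatives was not tested. Leaving out tumour 16 or either wild-type array left 0 of the 5 calls, against 4 without tumour 18 or tumour 2.

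**Figure D2:**
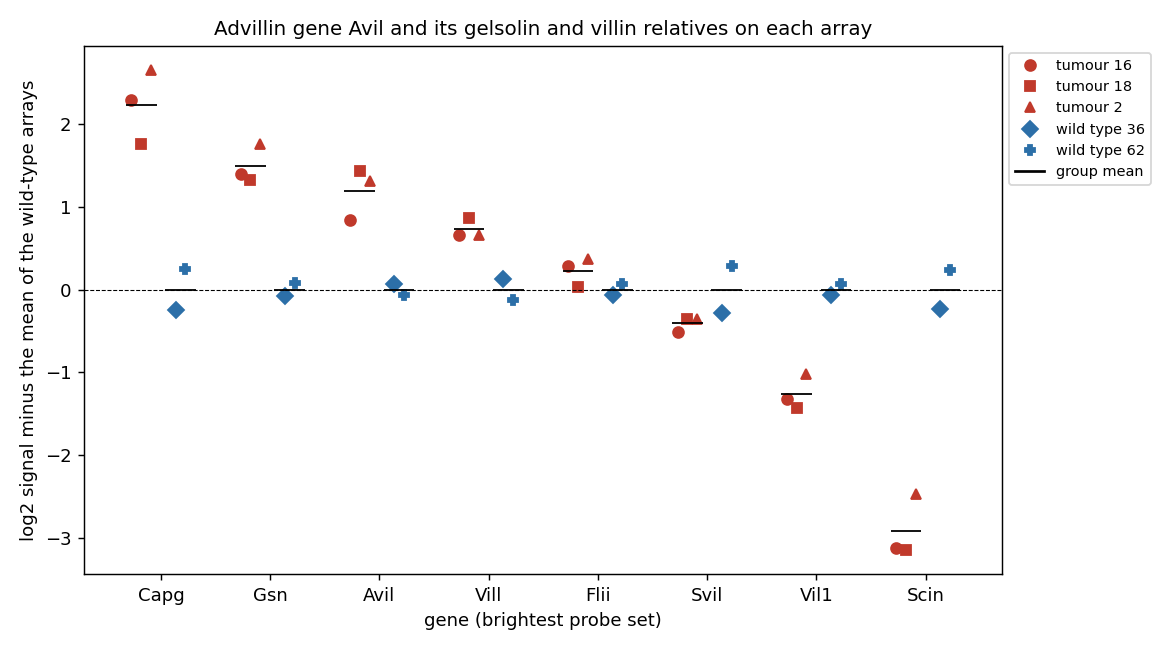
Log2 signal of each array minus the mean of the wild-type arrays (vertical axis) for Avil and 7 family members (horizontal axis), in the brightest probe set of each gene, with group means as lines. The tumour mean of Avil lies 1.20 above the wild-type mean, between those of Gsn (1.50) and Vill (0.73), while Vil1 (-1.26) and Scin (-2.92) lie below it.

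Alox5, Alox5ap and Ltc4s encode consecutive parts of the leukotriene pathway. The lipoxygenase ALOX5 oxidises arachidonic acid with the help of its membrane partner, the activating protein encoded by Alox5ap, and LTC4 synthase, the product of Ltc4s, joins glutathione to the product to give leukotriene C4. Ltc4s had log2 signals of 7.19, 7.13 and 7.14 in tumours 16, 18 and 2, against 7.45 and 7.44 in wild types 36 and 62. The values were tight within each group and did not overlap. The means were 7.15 ± 0.03 in tumours (SD, n = 3) and 7.45 ± 0.01 in wild types (SD, n = 2), so that Ltc4s fell by 0.29 on the log2 scale (SE 0.03, limma adjusted p = 0.0140), a 1.23-fold difference. The change of Ltc4s was small in size, and its call rests on the narrow spread. The call was lost without tumour 16 (adjusted p = 0.0505), tumour 18 (0.0543), wild type 36 (0.0638) or wild type 62 (0.0715), with changes of -0.31 to -0.28.

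Alox5ap had 7.46, 7.93 and 7.33 in tumours 16, 18 and 2, against 8.16 and 7.89 in wild types 36 and 62. Tumour 18 lay between the wild types, so the groups overlapped. The log2 change was -0.46 (SE 0.22, adjusted p = 0.243), with a 95% interval of -1.05 to 0.14, and it did not pass. Both Alox5ap and Ltc4s are also expressed by myeloid and mast cells. Of 17 macrophage and neutrophil genes, 1 rose and 0 fell, namely the lipopolysaccharide co-receptor gene Cd14 (0.94, SE 0.11, adjusted p = 0.0155), with a median change of 0.10. Genes of this list moved both ways, from -0.41 (Tyrobp) to 1.67 (Lyz2). Neither of these passed, and both are named after their values were seen. The mean log2 signal of that list was 7.08 to 7.56 on tumour arrays and 6.93 to 7.12 on wild-type arrays. Of 12 mast cell and basophil genes, 0 passed in limma and 1 had an unadjusted p under 0.05. Of its 2 brightest genes, the transcription factor gene Gata2 differed by -0.02 (SE 0.03) and the mast cell protease gene Mcpt2 by 1.27 (SE 0.40, adjusted p = 0.110). The list means were 6.72 to 6.98 on tumour arrays and 6.64 to 6.66 on wild-type arrays. The part of these cells in the values of Alox5ap and Ltc4s was not tested.

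Among other genes of eicosanoid synthesis, export and breakdown, the prostaglandin and leukotriene breakdown genes Hpgd and Dpep1 were much lower in tumours. Of 17 measured genes outside the members, 1 rose, 4 fell and 12 did not pass, with a median change of -0.06, beside 0.0040 over all genes. Hpgd, whose enzyme inactivates prostaglandins, had 7.17, 7.72 and 7.44 in tumours 16, 18 and 2, against 10.14 and 11.02 in wild types 36 and 62. It fell by 3.14 on the log2 scale (SE 0.33, limma adjusted p = 0.0121), and by 0.77 (SE 0.08) in its other probe set. Dpep1, which encodes a membrane dipeptidase that cleaves leukotriene D4, fell by 3.13 (SE 0.21, adjusted p = 0.00663). Its other probe set fell by 3.88 (SE 0.44). Abcc1, which encodes an exporter of leukotriene C4, rose by 1.62 (SE 0.09, adjusted p = 0.00553) in its brightest probe set, but differed by 0.08 (adjusted p = 0.356) in the other. Mgst2, a relative of LTC4 synthase that can also make leukotriene C4, fell by 0.89 (SE 0.15, adjusted p = 0.0280). Cysltr1, a receptor for cysteinyl leukotrienes, fell by 0.26 (SE 0.04, adjusted p = 0.0225) and is named after its value was seen, to complete the count. Calls in this list numbered 2 without tumour 16, 3 without tumour 18, 5 without tumour 2, 1 without wild type 36 and 0 without wild type 62. Hpgd and Dpep1 are also enterocyte genes.

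Trpm5, the channel that turns the taste-type cascade into a depolarisation, was measured by 2 probe sets. In 1418783_at the log2 signal was 6.61, 6.77 and 6.70 in tumours 16, 18 and 2, against 7.28 and 6.91 in wild types 36 and 62. In 1449224_at it was 6.76, 6.68 and 6.76 in the tumours, against 6.90 and 6.82 in the wild types. Every tumour lay below every wild type in both probe sets, though by as little as 0.059 in the second. Their log2 changes of -0.41 (SE 0.13, 95% interval -0.76 to -0.05) and -0.13 (SE 0.05, 95% interval -0.26 to 0.0031) did not pass (limma adjusted p = 0.111 and 0.156). The first was -0.22 without wild type 36 and -0.59 without wild type 62, and neither passed. The annotation gives both probe sets the same transcript accession, so they are not independent. Of 10 other taste-type signalling genes, 1 fell, 0 rose and 9 did not pass, with a median change of -0.03. The one that fell was Entpd2, which encodes an ATP-degrading ectoenzyme, with a change of -1.10 (SE 0.08, adjusted p = 0.00712). Its call was lost without wild type 36 (adjusted p = 0.0588) or wild type 62 (0.0700).

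Dclk1, which encodes a kinase with doublecortin domains and is the most used marker of intestinal tuft cells, did not pass in limma in any of its 6 probe sets, of which 1 had an unadjusted p under 0.05. Their log2 changes ran from -0.09 to 0.08. In the brightest, 1423125_at, the signal was 6.41, 6.43 and 6.44 in tumours 16, 18 and 2, against 6.43 in both wild types, and wild-type values were tied. The change of that probe set was -0.0064 (SE 0.03, limma adjusted p = 0.901), with a 95% interval of -0.08 to 0.07. The probe set with the widest spread, 1451289_at, had 6.33, 6.58 and 6.20 in the tumours, against 6.33 and 6.26 in the wild types. Its interval ran from -0.26 to 0.42. Groups overlapped in 5 of the 6 probe sets, and in 1451917_a_at all tumours were lower by a change of -0.09 (SE 0.03, adjusted p = 0.113).

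Tumour 18 was the highest of the 5 arrays in 4 of the 6 Dclk1 probe sets. The annotation gives 1424270_at, 1424271_at and 1451289_at the same source sequence, so they are not independent. Likewise 1450863_a_at shares its source sequence with 1423125_at, which was highest on tumour 2 (6.44). In 1450863_a_at the lead was narrow, at 6.36 on tumour 18 against 6.35 on wild type 36. The array median was also highest on tumour 18, at 6.87, and lowest on wild type 36, at 6.81. Dclk1 is also expressed in fibroblasts and enteric neurons. The 5 fibroblast genes of the list of 12 enteric neuron, glia and fibroblast genes were all highest on tumour 18, with mean log2 signals of 9.32, 10.12 and 8.27 in tumours 16, 18 and 2, against 7.61 and 7.21 in wild types 36 and 62. The 7 neuron and glia genes had 0 highest and 3 lowest on tumour 18. Their means were 6.28, 6.24 and 6.26 in the tumours, against 6.26 and 6.27 in the wild types. The list was divided in this way after its values were seen. Values of Tubb3, Uchl1, Gfap, Sox10 and Ret were tied exactly within a group, so they say little about tumour 18. The fibroblast gene Pdgfra was tied as well, on tumours 16 and 2. In the whole list 1 gene rose and 0 fell, namely the matrix proteoglycan gene Dcn (2.60, SE 0.52, limma adjusted p = 0.0418). On tumour 16 the fibroblast mean was also above both wild types, but none of the 6 Dclk1 probe sets was. In 1424271_at, for example, tumour 16 had 6.04, against 6.17 in both wild types. The part of fibroblasts in the Dclk1 values was not tested. Averaged over the 5 arrays, the 6 Dclk1 probe sets stood at the 1.04th to 36.7th percentile of all signals on the array, and presence calls were not used here.

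Il25 encodes the cytokine by which tuft cells alert type 2 lymphoid cells. Its log2 signal was 5.85, 5.80 and 5.79 in tumours 16, 18 and 2, against 5.92 and 5.92 in wild types 36 and 62. Every tumour was lower, by a change of -0.11 (SE 0.03, 95% interval -0.20 to -0.01, limma adjusted p = 0.115), which did not pass. The probe set stood at the 19.9th percentile of signals on average. Of 15 genes of the interleukin-25 receptor and the type 2 circuit, 2 rose, 1 fell and 12 did not pass, with a median change of 0.02. Crlf2, which encodes a receptor chain for thymic stromal lymphopoietin, rose by 0.54 (SE 0.08, adjusted p = 0.0218), and the arginase gene Arg1 rose by 0.53 (SE 0.07, adjusted p = 0.0174). Stat6, the transcription factor downstream of interleukins 4 and 13, fell by 0.57 (SE 0.10, adjusted p = 0.0344), while its other probe set differed by -0.15 (adjusted p = 0.0862). These calls were lost without tumour 18, wild type 36 or wild type 62, and without tumour 16 for Stat6 and Arg1.

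Gfi1b encodes a zinc finger repressor found in tuft cells and in the erythroid and megakaryocyte lineages. It had 6.93, 6.80 and 6.84 in tumours 16, 18 and 2, against 7.05 and 6.99 in wild types 36 and 62. The groups did not overlap, but the change of -0.16 (SE 0.05, 95% interval -0.30 to -0.01) did not pass (limma adjusted p = 0.127). Of 9 erythroid and megakaryocyte genes, 0 passed in limma and 2 had an unadjusted p under 0.05, and the list median was -0.02. Its brightest members, the receptor gene Epor and the transcription factor gene Klf1, differed by -0.04 (SE 0.05) and -0.03 (SE 0.03).

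**Figure D3:**
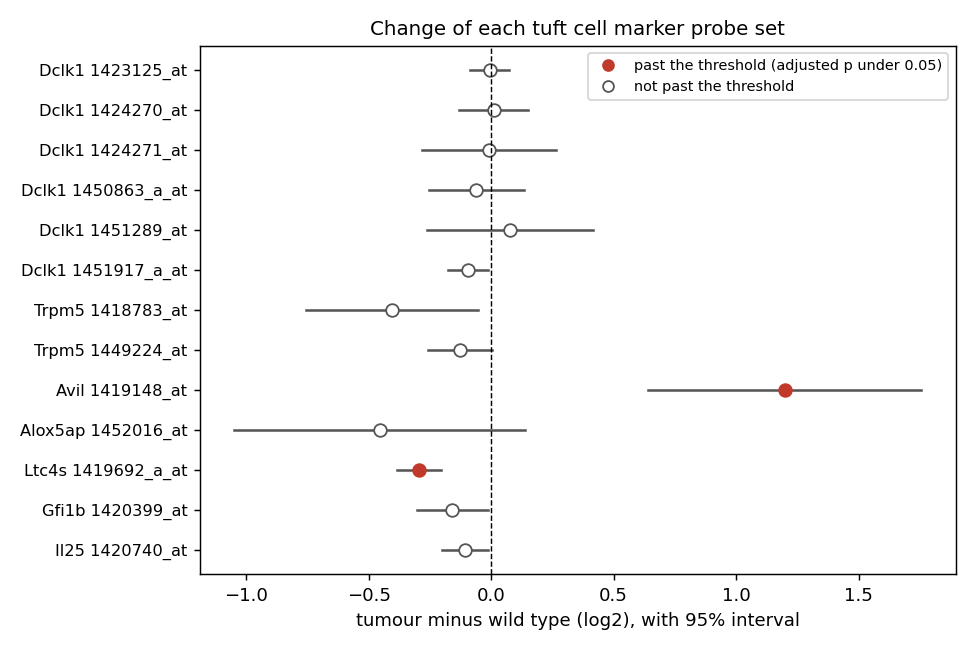
Log2 change, tumour minus wild type (horizontal axis), of each marker probe set, with limma's 95% interval, which is not adjusted for the number of probe sets. Filled points passed the threshold, namely Avil at 1.20 and Ltc4s at -0.29, and 10 of the 13 changes are below 0.

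Over the 7 measured marker genes, in their brightest probe sets, the mean log2 signal was 7.03, 7.17 and 7.07 in tumours 16, 18 and 2, against 7.18 and 7.06 in wild types 36 and 62. The groups overlapped. With Avil left out, a choice made after its values were seen, the means were 6.74, 6.81 and 6.71 in the tumours, against 7.05 and 6.93 in the wild types. Avil was the only marker gene with a change above 0, so leaving it out fixed that each of the other 6 was below 0. The separation of these means depends on that choice and is not a further result. Among the 6, Dclk1 was at -0.0064 (SE 0.03), and 1 change, that of Ltc4s, passed.

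Other tuft cell genes passed at a share near that of all genes. Of 24 measured genes outside the members, 2 rose, 2 fell and 20 did not pass, with a median change of -0.04. This is 16.7%, beside 20.4% of all genes, 10.5% higher and 9.92% lower. The lists share genes that did not pass. Gnb3, Gng13, Plcb2 and Sucnr1 are also in the taste-type list, Hpgds in the eicosanoid list and Il17rb in the type 2 list. Nrep had 8.80, 9.31 and 8.74 in tumours 16, 18 and 2, against 6.22 and 6.24 in wild types 36 and 62. It rose by 2.72 (SE 0.20, limma adjusted p = 0.00706) in its brightest probe set and by 0.64 (SE 0.09) in the other. Cd24a, a surface glycoprotein gene also expressed in crypt base cells, rose by 1.18 (SE 0.21, adjusted p = 0.0327), and by 1.59 (SE 0.18) in a second probe set. The remaining probe set of Cd24a differed by 1.26 (adjusted p = 0.0532). Lrmp, an endoplasmic reticulum protein gene of tuft cells and lymphocytes, had 6.07, 6.13 and 6.07 in the tumours, against 6.47 and 6.67 in the wild types. It fell by 0.48 (SE 0.07, adjusted p = 0.0239). Fyb, an adaptor gene of tuft cells and leukocytes, fell by 0.41 (SE 0.07, adjusted p = 0.0311). Pou2f3 differed by -0.14 (SE 0.04, adjusted p = 0.0746) and is named after its value was seen because tuft cells need it to form. Calls in this list numbered 1 without tumour 16, 2 without tumour 18, 1 without tumour 2, 1 without wild type 36 and 0 without wild type 62.

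**Figure D4:**
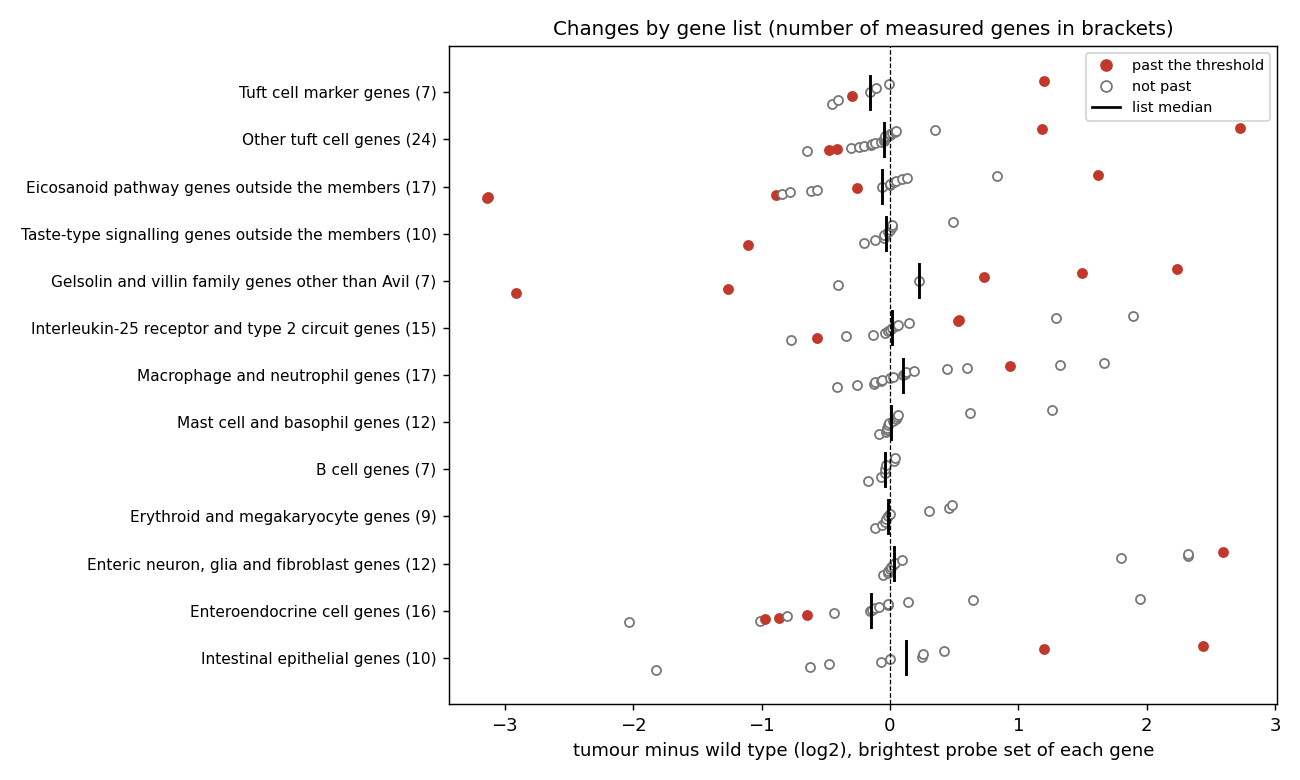
Log2 change, tumour minus wild type (horizontal axis), of the measured genes of the marker list and of 12 other lists (rows), each gene by its brightest probe set, with filled points past the threshold and a bar at the list median. The tuft cell lists have medians of -0.16 and -0.04 with single genes far to the right (Avil, Nrep, Cd24a), while the gelsolin and eicosanoid lists spread to both sides.

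Other cell types were described in the same way. Enteroendocrine cells, which like tuft cells are rare and sense the lumen, had 3 of 16 genes lower and 0 higher, with a median of -0.15. Those lower were the hormone genes Sst (-0.97, SE 0.16), Cck (-0.87, SE 0.14) and Sct (-0.65, SE 0.06), with limma adjusted p-values of 0.0266, 0.0266 and 0.0112. The other 13 did not pass, and the share called stands near the 20.4% of all genes. Pyy, named after its value was seen, went the other way (1.95, SE 0.59, adjusted p = 0.102) without passing. Of 7 B cell genes, 0 passed in limma and 0 had an unadjusted p under 0.05, and the brightest, Ms4a1 and Cd79a, differed by 0.03 (SE 0.10) and -0.17 (SE 0.11). Set against the labelled tissue, all 10 epithelial genes stood above the middle of the array's signals on average. The fibroblast genes Col1a2 and Col3a1 stood at the 90.7th and 85.7th percentile, so this standing does not measure how purely epithelial the cells were. Of the 10 epithelial genes, 2 rose, 0 fell and 8 did not pass. Those that rose were the keratin genes Krt18 (2.44, SE 0.16) and Krt19 (1.20, SE 0.25), with adjusted p-values of 0.00651 and 0.0467. Krt20, named after its value was seen, differed by -1.82 (SE 0.46, adjusted p = 0.0694). Across all 12 lists beside the members, 25 genes were called with every array, of which 7 kept the call without tumour 16, 12 without tumour 18, 18 without tumour 2, 3 without wild type 36 and 0 without wild type 62.

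The tumour arrays had the larger gap between the 3′ and 5′ control probe sets of beta-actin, at 4.0, 4.25 and 4.21 log2 units in tumours 16, 18 and 2, against 3.32 and 2.51 in wild types 36 and 62. The corresponding gaps of Gapdh were 4.50, 4.59 and 4.83, against 4.01 and 3.67. This measure of 3′ bias moved with the groups, and its part in the changes of the marker genes was not tested. Arrays correlated across probe sets at r = 0.983 to 0.991 among tumours and 0.990 between wild types, and at 0.909 to 0.937 between the groups.

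The genes most like Avil and Ltc4s in pattern were found by the root mean square difference over the 5 arrays, after each profile was centred on its own mean. For Avil these were Bcl2l11 (0.094 log2 units), Krt23 (0.13) and Metap2 (0.13), whose changes were 1.14, 0.99 and 1.25. For Ltc4s they were Ulk2 (0.018), Adar (0.019) and 1700001C19Rik (0.029), with changes of -0.30, -0.29 and -0.28. That these changes are close to those of Avil and Ltc4s follows from how the genes were picked and is not a further result.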

How the data were processed

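The deposited file holds log2 signals of 22690 Affymetrix probe sets on 5 arrays, and their range of 3.38 to 14.3 is the basis for calling them log2. Per the labels' protocols, RNA was extracted on silica columns with DNase digestion and labelled with biotin by a small-sample protocol. The R package affy is named in the submitters' processing notes, with the summary and normalization steps not given there. Array medians lay between 6.81 and 6.87, and no further normalization was applied. Values were tied exactly within a group in 30.3% of probe sets, 2 of the 13 marker probe sets among them, and what produced the ties is not known here.

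The 64 control probe sets were set aside, and 22626 were tested. GEO's platform annotation gave 1 symbol to 20380, several to 691 and none to 1555. Tumour minus wild type was fitted in R 4.3.3 by limma 3.58.1 (functions lmFit and eBayes, group as the only term, 3 residual degrees of freedom) and tested two-sided, with Benjamini-Hochberg adjustment over all probe sets and a threshold of 0.05. The script was tested on simulated data. An exact permutation test of 3 against 2 arrays cannot go below p = 0.1 (two-sided). Other genes were represented by their probe set of highest mean. From each list the 4 called genes of largest change are named, or the 2 brightest where none was called. The members and lists were chosen with earlier results of these data known, and no list was tested as a set. Alternatives were other normalizations, filters, variance settings, array weights, gene summaries and leaving out single arrays.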

Additional observations from a re-analysis of the deposited data

How the results depend on the processing

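Counts of marker probe sets past the threshold, 1 higher and 1 lower in tumours, were the same with quantile normalization, median centring, dim probe sets left out (6 of the 13 remained), trend and robust settings, 1 probe set a gene, the mean of probe sets, and tied probe sets left out (11 remained). With array weights 0 were higher, and Avil had an adjusted p of 0.0623 (4 marker probe sets had an unadjusted p under 0.05). Shared targets were left out by name alone, as probe sets ending in _x_at, _s_at or _a_at. In that run 0 were lower, because the Ltc4s probe set, 1419692_a_at, is itself among those left out (5 of the remaining 10 had an unadjusted p under 0.05). Whether that probe set takes up RNA of other genes was not tested. Leaving out 1 array gave 0 to 1 higher and 0 to 1 lower. Over all alternatives the adjusted p ran from 0.00936 to 0.155 for Avil and from 0.0107 to 0.0715 for Ltc4s. Over all probe sets 4139 passed, against 2695 of 12393 with 1 probe set a gene, 2224 of 15605 with shared targets left out, 4203 of 13576 with dim probe sets left out, 5169 of 15762 with tied ones left out, and 0 to 3424 with 1 array left out. The count of 0 came without wild type 62, with 6682 at an unadjusted p under 0.05, 4 of them marker probe sets. The split of calls was 2167 higher and 1972 lower, against 2353 and 2533 with median centring.

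The Dclk1 changes near 0 turned their sign. Dclk1 1424270_at was -0.024 with median centring and -0.028 to 0.040 with 1 array left out. Dclk1 1423125_at ran from -0.012 to 0.0026, 1424271_at from -0.095 to 0.050 and 1451289_at from -0.026 to 0.16. No other marker probe set turned its sign in any alternative run, and none of the other 11 passed in any. A fit that leaves 1 wild-type array takes its spread from the tumours alone. No paired analysis was possible because the groups share no replicate numbers.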
